A study of Mus musculus with 9 samples.

Results

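The nuclear genes for the subunits of the mitochondrial respiratory chain were examined in MLL-AF9 acute myeloid leukaemia of the mouse with and without Ezh2. A gene was a member if its symbol in the authors' table began with Nduf followed by a, b, c, s or v and a digit, with Uqcr, with Cox and a digit of 4 to 8, or with Atp5, or was Sdha, Sdhb, Sdhc, Sdhd, Cyc1 or Cycs. Probe sets that named several genes were left out, and each gene was read by its brightest probe set. The rule found 83 of the 20680 genes measured. Of these, 37 fall under complex I, 4 under complex II, 9 under complex III, 16 under complex IV and 13 under complex V, 1 is Cycs, and 3 match the rule but were not counted as subunits. Those 3 are Cox4nb, Atp5s and Atp5sl, which RefSeq now calls Emc8, Dmac2l and Dmac2. Atp5l, Atp5l2, Atp5o and Cox7c stood only on probe sets that named several genes and were not used here.

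The Ezh2-null group held 5 arrays and the wild-type (WT) group 4. Both genotypes came from C57B/6 mice and carried the MLL-AF9 fusion gene on a retrovirus that also encodes GFP (MLL-AF9-ires-GFP). Leukaemic colonies were passed into irradiated mice, which received pIpC to switch on Cre, and GFP/YFP positive marrow cells were then passed into irradiated secondary recipients. Marrow of the secondary recipients was sorted for cells positive for both GFP and YFP, so the WT cells had also passed through Cre activation, which YFP marks. The labels call the samples biological replicates without saying which primary leukaemia each recipient received, so p-values measure the spread between these samples. Each array read a whole sorted population, in which fewer cells of a type cannot be told apart from less RNA per cell.

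The respiratory chain passes electrons through complexes of the inner mitochondrial membrane to oxygen, and ATP synthase uses the proton gradient that this builds. Complex I (NADH dehydrogenase) and complex II (succinate dehydrogenase) feed ubiquinone, complex III (the cytochrome bc1 complex) hands electrons to cytochrome c, complex IV (cytochrome c oxidase) reduces oxygen, and complex V is ATP synthase. Most subunits are encoded in the nucleus and a smaller catalytic set in mitochondrial DNA, and none of the mitochondrially encoded subunits could be matched to a probe set by symbol. Leukaemic myeloid progenitors are known for their reliance on mitochondrial respiration, whereas mature neutrophils hold few mitochondria and live largely by glycolysis.

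Values are log2 intensities, and a change is the Ezh2-null mean minus the WT mean on that scale. Ezh2, the histone methyltransferase subunit of Polycomb repressive complex 2, averaged 9.21 ± 0.18 in Ezh2-null and 10.50 ± 0.49 in WT leukaemias (SD, n = 5 and n = 4). The change was -1.30 with no overlap between genotypes (limma adjusted p = 0.0373), although 40.7% of the WT intensity remained on the probe set. Ezh2 was lower in all 18 alternatives and passed in 10. The call was lost without Ezh2-null replicate 1, 2, 3 or 4 (limma adjusted p 0.0787, 0.0924, 0.0748 and 0.0936), without WT replicate 3 or 4 (0.0974 and 0.103) or both (0.149), and with the replicate number as a block (0.0815). The pan-leukocyte gene Ptprc averaged 12.48 in Ezh2-null and 12.23 in WT cells, and the myeloid gene Mpo 13.55 in Ezh2-null and 13.88 in WT cells. WT replicates 3 and 4 stood apart from the other arrays. On the first principal component of all genes, which held 36.7% of the variance, the Ezh2-null arrays lay between -29.5 and -9.83, while WT replicates 1 to 4 scored -0.67, -2.33, 58.9 and 51.8.

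Neutrophil markers moved with this split. All 11 measured were higher in Ezh2-null than in WT cells on average, with a median change of 0.90. At an unadjusted limma p under 0.05, 6 (54.5%) were higher, against 8.20% of all genes. None of the 11 passed (lowest limma adjusted p 0.0611, for the G-CSF receptor gene Csf3r). Their mean deviation from the mean of the 9 arrays was 0.88, 0.79, 0.23, 0.79 and -0.33 on Ezh2-null replicates 1 to 5. It was 0.30, 0.29, -1.72 and -1.22 on WT replicates 1 to 4, lowest on WT replicates 3 and 4. Without those 2 arrays, 9 of 11 were higher and the median change was 0.08. Median changes of the other marker lists were smaller, 0.25 for myeloid leukaemia markers, 0.12 for monocyte and macrophage markers, 0.05 for erythroid markers, 0.14 for T and NK cell markers, all 9 of them higher, and 0.10 for B cell markers. Markers of T and NK cells (-0.21 and -0.41), B cells (-0.21 and -0.23) and erythroid cells (-0.13 and -0.13) also had their lowest mean deviation on WT replicates 3 and 4. Without those arrays their median changes were -0.0011, 2e-04 and -0.003. The log2 difference between the 3' and 5' probe sets of Gapdh, a sign of RNA integrity, was 1.56 to 1.65 on Ezh2-null arrays, while WT replicates 1 to 4 gave 1.80, 1.69, 1.47 and 1.55. For Gapdh, WT replicates 1 and 2 thus lay above the Ezh2-null range and WT replicates 3 and 4 below it. The same difference for Actb was -0.090 to -0.035 on Ezh2-null arrays, and -0.097, 0.016, -0.072 and -0.076 on WT replicates 1 to 4, so WT replicates 3 and 4 lay inside the Ezh2-null range.

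Most respiratory chain genes read lower in Ezh2-null than in WT leukaemias, by small amounts. Of the 83 members, 74 were lower and 9 higher on average, with a median change of -0.23, whereas 46.7% of all genes were lower and their median change was 0.02. No member passed the limma test at an adjusted p of 0.05, against 0.498% of all genes. At an unadjusted limma p under 0.05, 22 members were lower, which is 26.5% of them against 8.97% of all genes, and 0 were higher against 8.20%. The genotypes did not overlap for 11 members, all of them lower, which is 13.3% against 2.87% of all genes lower and 3.03% higher. Changes ran between -0.70 for Cox4nb and 0.25 for Ndufa13, and the median SD of a member was 0.15 over Ezh2-null arrays and 0.25 over WT arrays.

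The difference rested largely on WT replicates 3 and 4. The mean deviation of the 83 members was -0.08, -0.09, -0.04, -0.18 and -0.16 on Ezh2-null replicates 1 to 5. It was -0.05, -0.04, 0.35 and 0.29 on WT replicates 1 to 4, so WT replicates 1 and 2 lay within the Ezh2-null range and WT replicates 3 and 4 above it. One of those 2 arrays was the highest of all 9 for 62 members, 74.7% of them, against 24.2% of all genes. Without both, 49 members (59.0%) were lower and 34 higher, against 53.5% of all genes lower. The members' median change was then -0.079 against -0.02 for all genes. Neutrophil markers were lowest on the same 2 arrays, and their part in the members' difference was not tested.

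**Figure D1:**
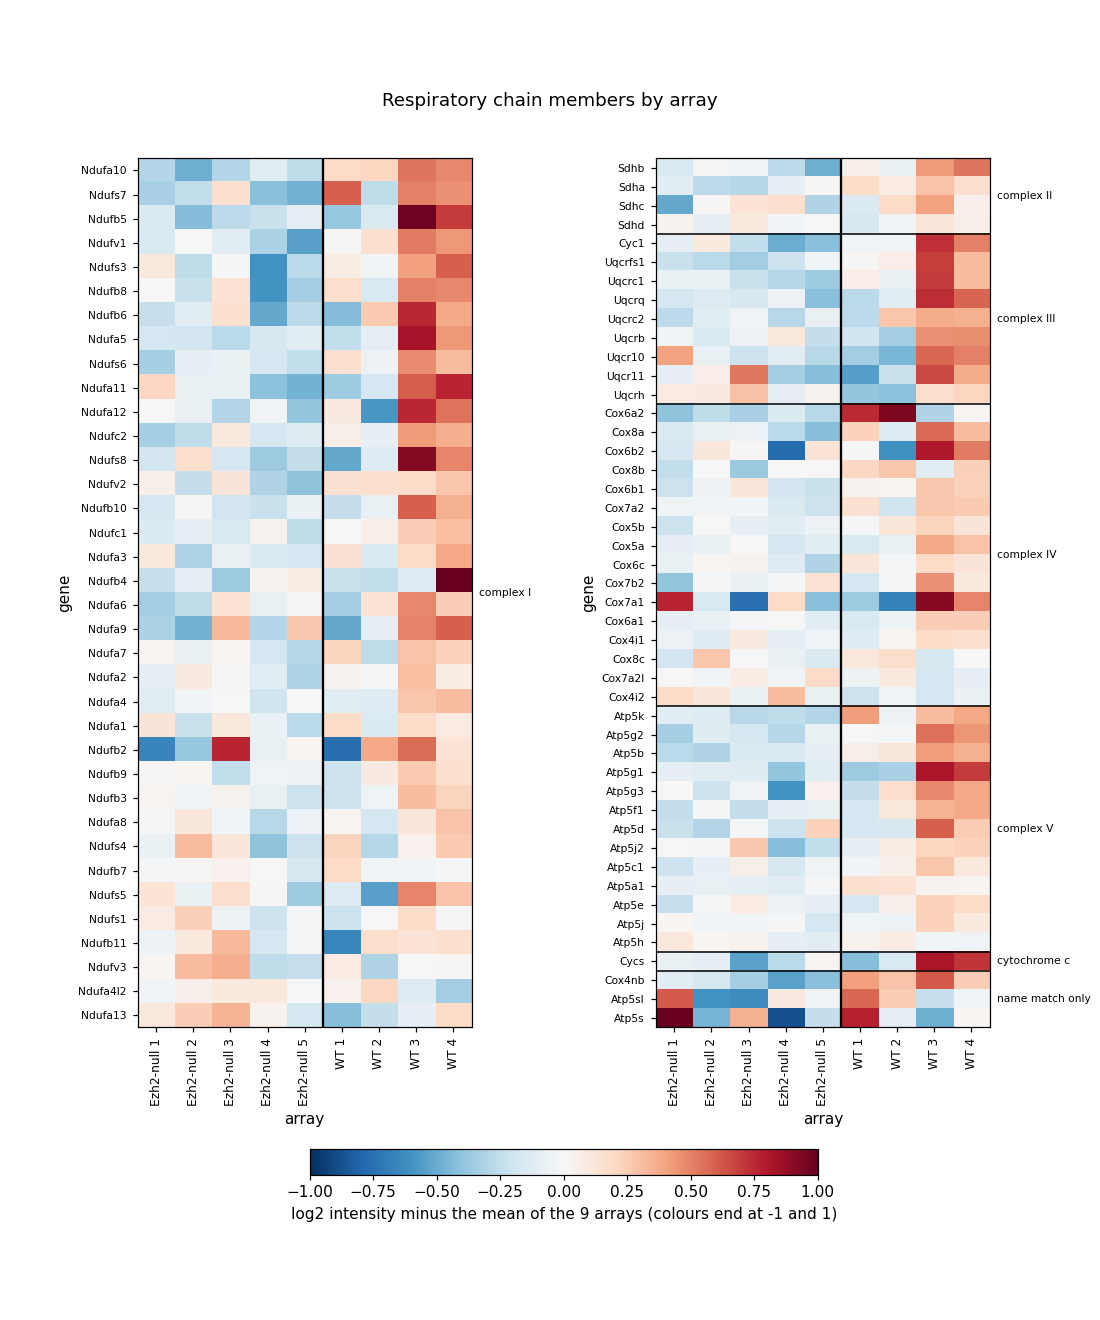
Log2 intensity of 82 of the 83 members on each array, minus that gene's mean over the 9 arrays. Rows are genes grouped by complex and columns are the 5 Ezh2-null arrays on the left and the 4 WT arrays on the right of each panel. Red is above the gene's mean and blue below it. Red gathers on WT replicates 3 and 4, which hold the highest value for 62 of the 83 members.

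**Figure D2:**
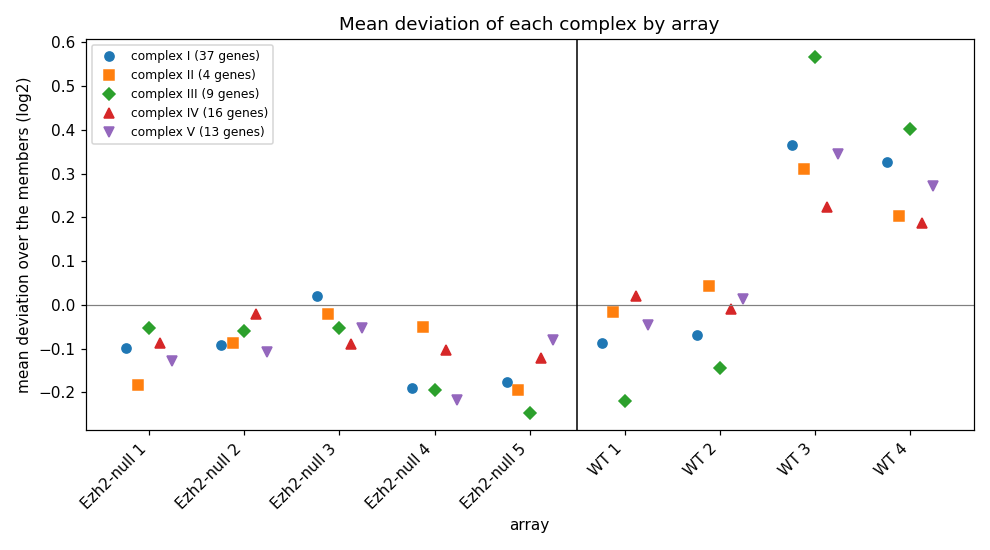
Mean deviation over the members of each complex (log2, vertical axis) on each array (horizontal axis, Ezh2-null left of the line and WT right of it), with one symbol per complex. All 5 complexes lie above 0 on WT replicates 3 and 4, up to 0.57 for complex III, and WT replicates 1 and 2 lie among the Ezh2-null arrays or close to them.

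Promoters of these genes are known for binding sites of NRF1, of the ETS factor GABP and of YY1, which are regulators of nuclear genes for mitochondrial proteins. RefSeq promoter sequences (assembly GRCm38.p6, from 250 bases before to 50 after the start) were at hand for 66 members with 72 promoters. They were searched on both strands for GCGCANGCG (NRF1), CCGGAAG (ETS) and AAGATGGCG (YY1). The comparison set was the 15933 promoters found by symbol for 12674 of the 20680 genes tested, whereas members were also matched by synonym. The NRF1 letters were in 20 promoters (27.8%), against 9.88% of that set. The ETS letters were in 15 (20.8%, against 12.8%) and the YY1 letters in 9 (12.5%, against 2.11%), and 37 (51.4%, against 22.0%) held at least 1 of the 3. Of the 9 with the YY1 letters, 2 are overlapping promoters of Atp5sl, which was not counted as a subunit. Both are also among the 37. Each motif was searched on its own, overlaps between motifs were allowed, and a promoter was counted once per motif even where 1 site matched on both strands.

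These 5 promoters are shown to let the letters be read beside the values that follow, with motif matches in capitals. Sdha has 3 separate NRF1 matches, Ndufs6 has an NRF1 and a YY1 match, Cycs has an NRF1 match, Atp5k has an NRF1 site matched on both strands and an ETS match, and Ndufa10, the complex I gene furthest lower, has none of the 3. Their positions are in order Sdha chr13:74350191-74350490 on the minus strand, Ndufs6 chr13:73328433-73328732 on the minus strand, Cycs chr6:50566520-50566819 on the minus strand, Atp5k chr5:108434350-108434649 on the minus strand and Ndufa10 chr1:92473709-92474008 on the minus strand.
Sdha: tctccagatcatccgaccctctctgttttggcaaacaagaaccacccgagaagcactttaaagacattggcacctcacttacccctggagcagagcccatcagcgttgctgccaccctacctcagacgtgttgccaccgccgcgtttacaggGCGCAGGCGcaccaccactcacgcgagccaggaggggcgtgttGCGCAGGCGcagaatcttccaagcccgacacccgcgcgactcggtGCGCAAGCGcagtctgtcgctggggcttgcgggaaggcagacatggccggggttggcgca
Ndufs6: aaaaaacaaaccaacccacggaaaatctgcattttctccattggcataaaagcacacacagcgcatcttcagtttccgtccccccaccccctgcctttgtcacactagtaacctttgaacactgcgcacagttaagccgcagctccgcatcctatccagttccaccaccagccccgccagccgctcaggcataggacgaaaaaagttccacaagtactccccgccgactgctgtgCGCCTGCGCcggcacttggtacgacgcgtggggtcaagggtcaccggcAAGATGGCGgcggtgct
Cycs: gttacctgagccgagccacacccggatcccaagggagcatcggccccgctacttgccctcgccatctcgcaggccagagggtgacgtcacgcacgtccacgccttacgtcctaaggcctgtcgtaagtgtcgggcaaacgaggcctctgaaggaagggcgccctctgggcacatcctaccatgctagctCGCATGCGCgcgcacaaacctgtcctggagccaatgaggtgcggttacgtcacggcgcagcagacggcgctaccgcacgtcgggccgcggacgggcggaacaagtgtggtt
Atp5k: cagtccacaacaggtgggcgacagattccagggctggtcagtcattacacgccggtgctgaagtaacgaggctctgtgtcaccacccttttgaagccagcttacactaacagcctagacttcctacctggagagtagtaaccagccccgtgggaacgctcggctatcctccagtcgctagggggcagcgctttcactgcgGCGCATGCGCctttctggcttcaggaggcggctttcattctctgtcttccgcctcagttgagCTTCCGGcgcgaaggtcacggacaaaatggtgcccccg
Ndufa10: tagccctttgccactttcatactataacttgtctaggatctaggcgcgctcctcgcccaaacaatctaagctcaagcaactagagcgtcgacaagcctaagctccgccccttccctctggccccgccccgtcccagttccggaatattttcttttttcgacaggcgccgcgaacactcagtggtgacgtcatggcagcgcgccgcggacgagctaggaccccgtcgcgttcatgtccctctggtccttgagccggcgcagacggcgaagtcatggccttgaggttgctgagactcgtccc

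The change was described for members with and without a motif. The 35 members with a motif had a median change of -0.26 and the 31 without one of -0.22, and both sets ran on either side of 0. Ndufa10 had the most negative change of those without a motif.

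Complex I oxidises NADH and has the most subunits of the chain. Of its 37 genes, 32 were lower in Ezh2-null than in WT cells and 5 higher, with a median change of -0.26. An unadjusted limma p under 0.05 was found for 10, all lower, which is 27.0% against 8.97% of all genes. The 7 core subunits, which carry the flavin and the iron-sulphur clusters or form the quinone site, had a median change of -0.35, and 5 of them had such a p. The 30 others, which are accessory subunits together with Ndufa4 and Ndufa4l2, had a median of -0.22. None of the 37 passed.

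Ndufa10, an accessory subunit of the membrane arm, was the most separated subunit gene. It read 11.21, 11.00, 11.20, 11.39 and 11.24 on Ezh2-null replicates 1 to 5, against 11.69, 11.71, 12.03 and 11.98 on WT replicates 1 to 4. Every Ezh2-null array lay below every WT array. The change was -0.64 ± 0.12 (SE; 95% confidence interval -0.91 to -0.37), or 1.56-fold lower, with a limma adjusted p of 0.0569 and an exact two-sided permutation p of 0.00794, the smallest that 126 splits allow. Without WT replicates 3 and 4 the change was -0.49 (limma adjusted p = 0.212). A second, dimmer probe set of Ndufa10 differed by 0.18 in the other direction (limma adjusted p = 0.643, over all probe sets).

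Ndufv1 binds the flavin that takes electrons from NADH. Its values were 10.95, 11.10, 11.00, 10.79 and 10.56 in Ezh2-null cells, against 11.12, 11.26, 11.63 and 11.54 in WT cells, without overlap. The change was -0.51 ± 0.15 (SE; limma adjusted p = 0.142), and its other 2 probe sets gave -0.65 and -0.63. Its partner Ndufv2, an iron-sulphur protein, read 11.59, 11.31, 11.67, 11.25 and 11.14 in Ezh2-null cells, against 11.70, 11.70, 11.73 and 11.82 in WT cells. The groups again did not overlap, and Ezh2-null replicates 1 and 3 came close to the lowest WT array. The change was -0.34 ± 0.13 (SE; limma adjusted p = 0.219).

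Ndufs7 carries the last iron-sulphur cluster before the quinone. It read 10.69, 10.77, 11.17, 10.60 and 10.54 in Ezh2-null cells, against 11.62, 10.76, 11.52 and 11.47 in WT cells. WT replicate 2 lay inside the Ezh2-null range and the other 3 WT arrays above it. The change was -0.59 ± 0.20 (SE; limma adjusted p = 0.179), and it reached -0.78 with an adjusted p of 0.0460 when WT replicate 2 was left out. Ndufs6, an accessory subunit next to the NADH-binding arm, read 11.33, 11.58, 11.60, 11.50 and 11.42 in Ezh2-null cells, against 11.83, 11.61, 12.13 and 11.98 in WT cells. The genotypes did not overlap, though WT replicate 2 lay just above Ezh2-null replicate 3, and the change was -0.40 ± 0.13 (SE; limma adjusted p = 0.161).

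Further complex I genes with an unadjusted p under 0.05 included the core subunit Ndufs3 (-0.47) and the accessory subunits Ndufb8 (-0.46), Ndufc2 (-0.35) and Ndufc1 (-0.27). The large core subunit Ndufs1, which holds several iron-sulphur clusters, differed by 0.02. Ndufa13, an accessory subunit also known as Grim19, had the most positive change of all members. It read 12.53, 12.67, 12.76, 12.45 and 12.24 in Ezh2-null cells, against 11.99, 12.18, 12.34 and 12.62 in WT cells. The groups overlapped, and the change of 0.25 ± 0.15 (SE; limma adjusted p = 0.442) did not pass.

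Ndufa4 keeps a complex I name but is now known as a subunit of complex IV, and Ndufa4l2 is its hypoxia-induced relative. Ndufa4 read 12.24, 12.32, 12.36, 12.15 and 12.35 in Ezh2-null cells, against 12.25, 12.22, 12.63 and 12.66 in WT cells. WT replicates 1 and 2 lay within the Ezh2-null range and WT replicates 3 and 4 above it, a change of -0.15 ± 0.13 (SE). Ndufa4l2 ran between 7.93 and 8.07 in Ezh2-null cells and between 7.61 and 8.17 in WT cells. Its change of 0.10 ± 0.12 (SE) had an interval of -0.17 to 0.38.

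**Figure D3:**
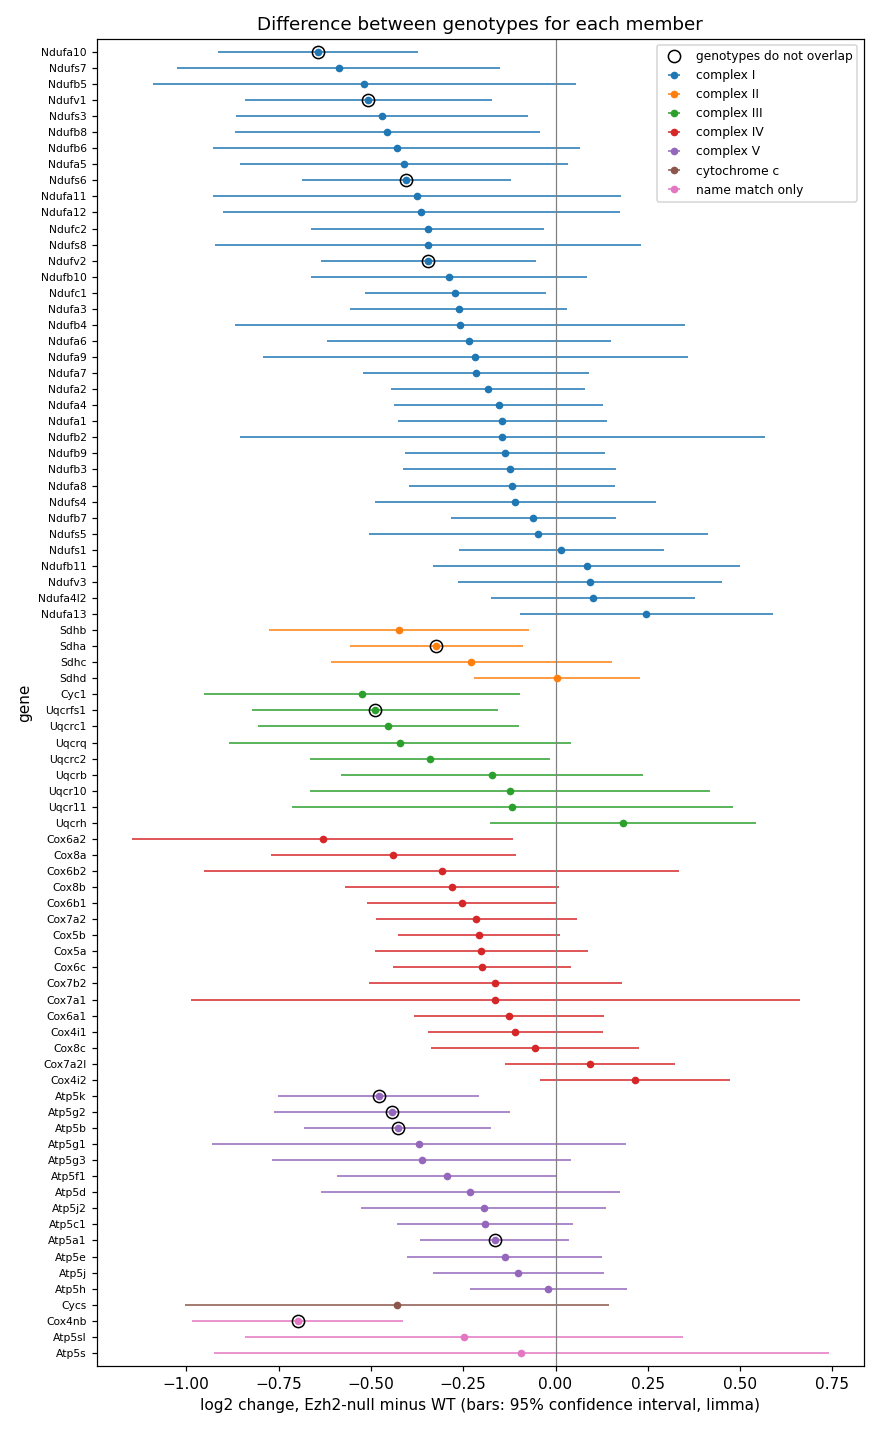
Change of 82 of the 83 members (Ezh2-null minus WT, log2, horizontal axis; genes down the page, grouped and coloured by complex). Points are limma estimates, bars their 95% confidence intervals, and black circles mark the 11 members whose genotypes do not overlap. The points lie mostly left of 0, and all 13 of complex V do.

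Complex II oxidises succinate and is also an enzyme of the tricarboxylic acid cycle. It has 4 nuclear genes, 3 of them lower in Ezh2-null cells, with a median change of -0.28. Sdha, the flavoprotein with the succinate site, read 12.22, 12.07, 12.05, 12.25 and 12.35 in Ezh2-null cells, against 12.51, 12.41, 12.62 and 12.50 in WT cells. On this probe set the genotypes did not overlap, and WT replicates 3 and 4 were close to WT replicates 1 and 2. The change was -0.32 ± 0.11 (SE; limma adjusted p = 0.172; exact permutation p = 0.0159), and -0.27 without WT replicates 3 and 4. The next brightest of the 4 Sdha probe sets overlapped and was highest on WT replicates 3 and 4. It ran between 10.73 and 11.01 in Ezh2-null cells, against 10.93, 11.08, 11.55 and 11.42 in WT cells. Its change was -0.34 (limma adjusted p = 0.284, over all probe sets).

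Sdhb, the iron-sulphur subunit, read 10.25, 10.39, 10.37, 10.14 and 9.91 in Ezh2-null cells, against 10.45, 10.33, 10.82 and 10.93 in WT cells. WT replicate 2 lay inside the Ezh2-null range, and the change was -0.42 ± 0.16 (SE; limma adjusted p = 0.214). Sdhc and Sdhd anchor the enzyme in the membrane. Sdhc ran between 10.78 and 11.46 in Ezh2-null cells and between 11.16 and 11.69 in WT cells, a change of -0.23 ± 0.17 (SE). Sdhd averaged 11.53 in both genotypes, and the interval of its difference was -0.22 to 0.23.

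Within complex III, the 4 genes for the redox and core proteins, Cyc1, Uqcrfs1, Uqcrc1 and Uqcrc2, were all lower with an unadjusted limma p under 0.05 and a median change of -0.47. The 5 small subunits, Uqcrb, Uqcrh, Uqcrq, Uqcr10 and Uqcr11, had 4 lower and 1 higher, none with such a p, and a median of -0.12. Over both subsets 44.4% were lower at such a p, against 8.97% of all genes. The subsets overlapped, since the small subunit Uqcrq (-0.42) lay below the core protein Uqcrc2 (-0.34), and the difference between them was not tested. Without WT replicates 3 and 4 the first 4 were still lower (median -0.20), but all 5 small subunits were higher, with a median of 0.33.

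Cyc1, the cytochrome c1 that passes electrons to cytochrome c, read 10.17, 10.37, 10.02, 9.78 and 9.85 in Ezh2-null cells, against 10.24, 10.24, 11.00 and 10.77 in WT cells. WT replicates 1 and 2 lay inside the Ezh2-null range. The change was -0.52 ± 0.19 (SE; limma adjusted p = 0.208), or 1.44-fold lower, and -0.20 without WT replicates 3 and 4. Uqcrfs1, the Rieske iron-sulphur protein, read 9.17, 9.13, 9.04, 9.18 and 9.35 in Ezh2-null cells, against 9.41, 9.46, 10.09 and 9.71 in WT cells. It was the member of complex III whose genotypes did not overlap, and its change was -0.49 ± 0.15 (SE; limma adjusted p = 0.153; exact permutation p = 0.00794).

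Uqcrc1 and Uqcrc2 are the core proteins that face the matrix. Uqcrc1 read 9.77, 9.77, 9.61, 9.55 and 9.48 in Ezh2-null cells, against 9.90, 9.77, 10.53 and 10.15 in WT cells, where WT replicate 2 met the top of the Ezh2-null range. Uqcrc2 read 11.26, 11.42, 11.48, 11.24 and 11.44 in Ezh2-null cells, against 11.26, 11.80, 11.89 and 11.88 in WT cells, and here WT replicate 1 lay low. The changes were -0.45 ± 0.16 and -0.34 ± 0.15 (SE). Uqcrh, the hinge protein that helps cytochrome c1 meet cytochrome c, was the 1 member of complex III higher on average. It ran between 11.83 and 12.21 in Ezh2-null cells, against 11.53, 11.51, 12.09 and 12.13 in WT cells, a change of 0.18 ± 0.16 (SE; limma adjusted p = 0.598) that was 0.48 without WT replicates 3 and 4. On all 9 arrays a second, dimmer probe set of Uqcrh differed by -0.06, in the other direction (limma adjusted p = 0.825, over all probe sets).

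Cycs, the mobile electron carrier between complexes III and IV that also triggers the apoptosome, read 9.45, 9.42, 8.99, 9.25 and 9.55 in Ezh2-null cells, against 9.10, 9.37, 10.34 and 10.24 in WT cells. WT replicates 3 and 4 were the highest arrays and WT replicates 1 and 2 lay within the Ezh2-null range. The change was -0.43 ± 0.26 (SE; limma adjusted p = 0.421). It turned to 0.097 without WT replicates 3 and 4.

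Complex IV had the smallest median change of the 5 complexes, -0.20, with 14 of 16 genes lower. At an unadjusted limma p under 0.05 the complex had 2 lower genes (12.5%), near the 8.97% of all genes. Several of its subunits exist as a widely expressed and a tissue-restricted isoform. The 8 common isoforms were all lower, with a median of -0.20, and of the 7 restricted ones 6 were lower, with a median of -0.16. Cox8a, the common form of a small hydrophobic subunit, read 10.40, 10.47, 10.49, 10.27 and 10.12 in Ezh2-null cells, against 10.78, 10.42, 11.11 and 10.85 in WT cells. WT replicate 2 lay inside the Ezh2-null range, and the change was -0.44 ± 0.15 (SE; limma adjusted p = 0.183).

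The other common isoforms that pair with a restricted one changed less. Cox4i1, the largest nuclear subunit, read 12.47, 12.40, 12.62, 12.43 and 12.49 in Ezh2-null cells, against 12.40, 12.56, 12.71 and 12.69 in WT cells, a change of -0.11 ± 0.11 (SE) that was 0.0037 without WT replicates 3 and 4. Cox6a1 (-0.13), Cox6b1 (-0.25) and Cox7a2 (-0.21) had limma adjusted p-values of 0.608, 0.296 and 0.397. For Cox4i1, Cox6a1, Cox6b1 and Cox7a2 the highest array was WT replicate 3 or 4.

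Cox6a2, the heart and muscle isoform of subunit VIa, ran against the common array pattern. It read 8.38, 8.53, 8.46, 8.65 and 8.51 in Ezh2-null cells, against 9.53, 9.72, 8.48 and 8.82 in WT cells. Here WT replicates 1 and 2 were high, and WT replicates 3 and 4 lay within or near the Ezh2-null range. The change was -0.63 ± 0.23 (SE; limma adjusted p = 0.208), or 1.55-fold lower. Without WT replicates 3 and 4 it was -1.12 with a limma adjusted p of 0.0159, and Cox6a2 was then the 1 member that passed. That setting keeps only the WT arrays on which Cox6a2 was highest, so the call follows that choice of arrays. On all 9 arrays its second, dimmer probe set differed by -0.23 (limma adjusted p = 0.612, over all probe sets).

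The other restricted isoforms did not pass. Cox4i2, the lung isoform, read 7.29, 7.21, 7.03, 7.40 and 7.01 in Ezh2-null cells, against 6.88, 7.07, 6.92 and 7.03 in WT cells, a change of 0.22 ± 0.12 (SE; limma adjusted p = 0.368). The muscle isoform Cox8b (-0.28 ± 0.13, SE) was lower in both sets of arrays. The muscle isoform Cox7a1 (-0.16 ± 0.37, SE) and the testis isoforms Cox6b2 (-0.31 ± 0.29), Cox7b2 (-0.16 ± 0.15) and Cox8c (-0.06 ± 0.13) had changes smaller than their SD in either genotype. Cox7a1, Cox7b2 and Cox8b lay below the 40th percentile of mean log2 intensity, so the filter on dim genes left them out. Cox7a2l, a factor of supercomplexes of complexes III and IV, differed by 0.09.

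Complex V was lower throughout, with 13 of 13 genes below 0 and a median change of -0.23. At an unadjusted limma p under 0.05, 3 (23.1%) were lower, against 8.97% of all genes. Without WT replicates 3 and 4, 10 of 13 (76.9%) were lower, against 53.5% of all genes. Atp5b, the catalytic beta subunit of F1, read 12.43, 12.40, 12.57, 12.56 and 12.61 in Ezh2-null cells, against 12.76, 12.82, 13.12 and 13.06 in WT cells. The groups did not overlap, and the change was -0.43 ± 0.11 (SE; limma adjusted p = 0.116; exact permutation p = 0.00794). Atp5a1, the alpha subunit that alternates with it, read 13.68, 13.69, 13.67, 13.66 and 13.75 in Ezh2-null cells, against 13.92, 13.90, 13.80 and 13.79 in WT cells. It did not overlap either. On this probe set, unlike most members, it was lower on WT replicates 3 and 4 than on WT replicates 1 and 2. Its change was -0.16 ± 0.09 (SE; limma adjusted p = 0.383), and the next brightest probe set gave -0.18. The dimmest of its 3 read 11.62, 11.60, 12.11 and 12.11 on WT replicates 1 to 4, highest on replicates 3 and 4. That probe set differed by -0.52 (limma adjusted p = 0.165, over all probe sets).

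Atp5k, the small subunit e of the membrane part, had the lowest p of complex V. It read 12.66, 12.64, 12.49, 12.52 and 12.48 in Ezh2-null cells, against 13.19, 12.72, 13.09 and 13.16 in WT cells, without overlap. The change was -0.48 ± 0.12 (SE; limma adjusted p = 0.105), and its 2 dimmer probe sets gave -0.43 and -0.38. Atp5f1, the peripheral stalk subunit b, differed by -0.29 ± 0.13 and Atp5h, the stalk subunit d, by -0.02 ± 0.10 (SE).

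Subunit c, which forms the rotating ring, is encoded by Atp5g1, Atp5g2 and Atp5g3. Atp5g2 read 10.79, 11.00, 10.94, 10.83 and 11.05 in Ezh2-null cells, against 11.12, 11.11, 11.67 and 11.56 in WT cells, without overlap and with a change of -0.44 ± 0.14 (SE; limma adjusted p = 0.170). Atp5g1 read 9.96, 9.94, 9.93, 9.66 and 9.95 in Ezh2-null cells, against 9.69, 9.73, 10.87 and 10.75 in WT cells. Its change of -0.37 ± 0.25 (SE; limma adjusted p = 0.485) was carried by WT replicates 3 and 4 and was 0.18 without them. Atp5g3 differed by -0.36 ± 0.18 (SE).

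**Figure D4:**
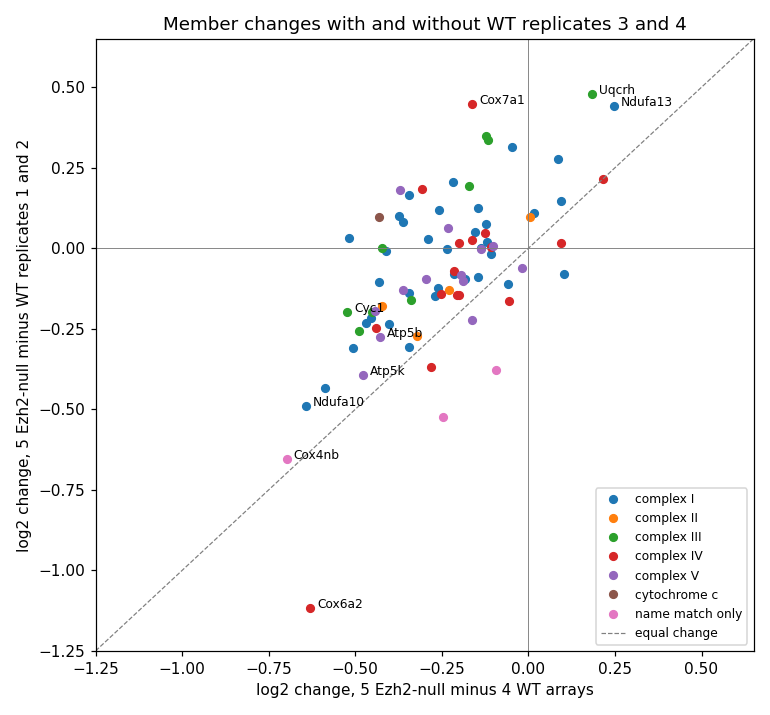
Change of 82 of the 83 members without WT replicates 3 and 4 (vertical axis, log2) against the change with all 9 arrays (horizontal axis, log2), coloured by complex, with a dashed line for equal change. Both axes use the same 5 Ezh2-null arrays, so the values are not independent. Most points lie above the dashed line, nearer to 0 or past it, and Cox6a2 lies below it at -1.12.

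Cox4nb, matched by its name alone, had the lowest p of the 83. Its product Emc8 is a subunit of the endoplasmic reticulum membrane protein complex, and the gene neighbours Cox4i1 on chromosome 8. Cox4nb read 9.75, 9.70, 9.53, 9.32 and 9.44 in Ezh2-null cells, against 10.26, 10.14, 10.47 and 10.10 in WT cells. The groups did not overlap, and the change was -0.70 ± 0.13 (SE; limma adjusted p = 0.0507; exact permutation p = 0.00794), or 1.62-fold lower, and -0.65 without WT replicates 3 and 4. Cox4i1, its neighbour, changed by -0.11. Without the 3 genes not counted as subunits, 71 of 80 members were lower, with a median change of -0.23.

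Further probe sets of the same genes gave the same direction in most cases. Of 80 probe sets that were not the brightest of their gene, 67 were lower, with a median change of -0.16, and 67 had the sign of the brightest one. When every probe set was tested on its own, 14 of the 80 were lower and 1 higher at an unadjusted limma p under 0.05, and 0 passed (lowest adjusted p 0.122, for Ndufv1).

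Assembly factors, genes of the tricarboxylic acid cycle, ubiquinone synthesis genes and inner membrane carriers were also highest on WT replicates 3 and 4, where the mean deviation of these lists was 0.27 to 0.56. Of 29 assembly factors, 25 were lower with a median change of -0.26, and 0 passed. At an unadjusted limma p under 0.05, 6 (20.7%) were lower, against 8.97% of all genes. Nubpl, which delivers iron-sulphur clusters to complex I, read 8.80, 8.09, 8.77, 8.67 and 9.09 in Ezh2-null cells, against 10.31, 9.63, 9.76 and 9.57 in WT cells. The genotypes did not overlap, WT replicate 1 was the highest array, and the change was -1.13 ± 0.21 (SE; limma adjusted p = 0.0567). Nubpl passed in 7 of 18 alternatives, among them the ComBat table (adjusted p = 0.0378), the filter on dim genes (0.0451), array weights (0.0299) and the replicate number as a block (0.0410). Ndufaf4, another assembly factor of complex I, differed by -1.10 ± 0.32 (SE), with 10.41 and 10.35 on WT replicates 3 and 4.

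Of 16 genes of the tricarboxylic acid cycle, 15 were lower with a median change of -0.37, and 0 passed. At such a p 3 (18.8%) were lower, against 8.97% of all genes. Suclg2, a subunit of succinyl-CoA ligase, differed by -0.82 ± 0.25 and Ogdh, of the oxoglutarate dehydrogenase complex, by -0.58 ± 0.19 (SE). All 11 ubiquinone synthesis genes were lower (median -0.20), 0 passed and 1 had such a p (9.09%, near the 8.97% of all genes). Among them were Coq2, which attaches the isoprenoid tail (-0.49 ± 0.17, SE), and Pdss1, which makes it (-0.39 ± 0.20, SE). Of 12 carriers of the inner membrane, 9 were lower with a median of -0.16, and 0 passed. At such a p 3 (25%) were lower and 1 higher, against 8.97% and 8.20% of all genes. The aspartate-glutamate carrier Slc25a13 differed by -0.74 ± 0.23 and the phosphate carrier Slc25a3 by -0.36 ± 0.12 (SE). Without WT replicates 3 and 4, 13 of 29 assembly factors, 8 of 16 cycle genes, 6 of 11 ubiquinone genes and 8 of 12 carriers were lower. These shares were 44.8%, 50%, 54.5% and 66.7%, against 53.5% of all genes.

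Among 15 regulators of mitochondrial gene expression, 11 were lower with a median change of -0.06. Of the 15, 1 passed, Ppargc1b, against 0.498% of all genes. At an unadjusted limma p under 0.05, 3 (20%) were lower, against 8.97% of all genes. Without WT replicates 3 and 4, 7 of 15 (46.7%) were lower, against 53.5% of all genes, and 0 passed. Ppargc1b encodes PGC-1 beta, a coactivator of NRF1 and of oestrogen-related receptors. It read 5.42, 5.67, 6.58, 5.77 and 6.61 in Ezh2-null cells, against 7.48, 7.22, 7.66 and 7.64 in WT cells. Every Ezh2-null array lay below every WT array, with Ezh2-null replicates 3 and 5 nearest to WT, and WT replicates 1 and 2 lay near the other WT arrays. Ppargc1b fell 2.80-fold in Ezh2-null cells (change -1.49 ± 0.26, SE; limma adjusted p = 0.0388; exact permutation p = 0.00794). The call was not kept when Ezh2-null replicate 1, 2, 3 or 4 or WT replicate 3 or 4 was left out, when WT replicates 3 and 4 both were, or when its probe sets were averaged, and over 17 alternatives the adjusted p ran between 0.0130 and 0.194, under 0.05 in 9. Ppargc1b lay below the 40th percentile of mean log2 intensity, so the filter on dim genes left it out and gave no value for it. A second, dimmer probe set differed by -0.21.

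The related coactivator Ppargc1a read between 6.00 and 6.45 in Ezh2-null cells and between 6.15 and 6.29 in WT cells, a change of -0.01. The motif-binding factors named above varied little between genotypes, with changes of -0.10 for Nrf1, -0.04 for Gabpa and 0.03 for Yy1. Tfam, the packaging and transcription factor of mitochondrial DNA, differed by -0.40 ± 0.16 (SE; limma adjusted p = 0.236), and Esrra by 0.30 ± 0.21 (SE; limma adjusted p = 0.503). Ptprc, Mpo, Ppargc1a, Nrf1, Gabpa, Yy1, Tfam and Esrra were named after their values were seen, as were the complex I and complex IV genes given by their change alone.

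**Figure D5:**
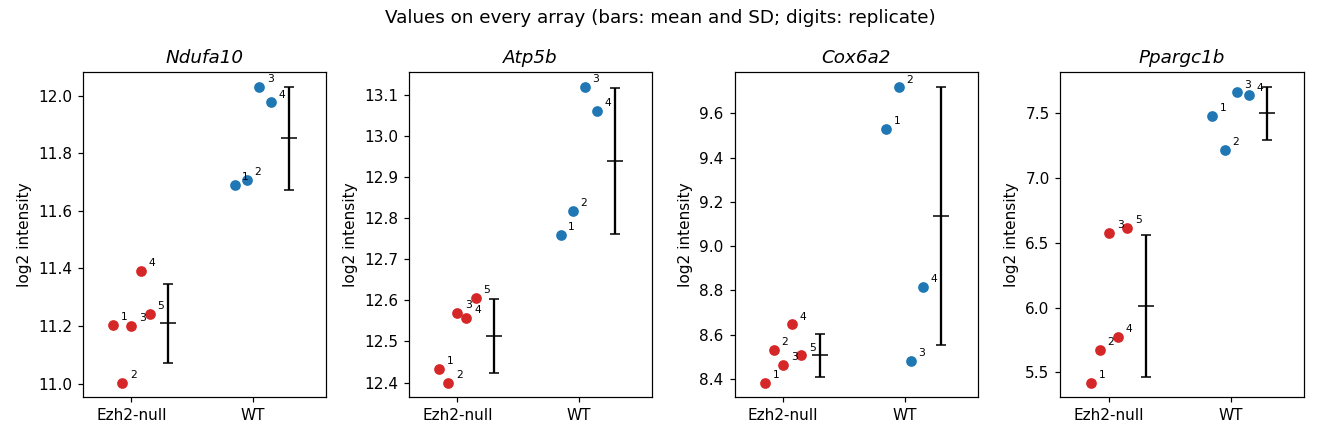
Log2 intensity (vertical axis, a separate range in each panel) of Ndufa10, Atp5b, Cox6a2 and Ppargc1b on every array, Ezh2-null left and WT right. Points are arrays with their replicate number, and bars are the mean and SD of each genotype. Ndufa10, Atp5b and Ppargc1b do not overlap. For Cox6a2, WT replicates 1 and 2 stand well above the Ezh2-null arrays, WT replicate 4 lies just above them and WT replicate 3 among them.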

How the data were processed

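Sorted leukaemic marrow cells of 5 Ezh2-null and 4 WT samples were measured on 1 microarray each, grouped and numbered by the sample titles. Amplification of the RNA by a whole-transcriptome method preceded biotin labelling, per the labels' protocols. The submitters' processing notes name RMA, version not given. The deposited values are a linear intensity per probe set, with no pooling, and the return from the log2 scale of RMA is an inference from their range. The other deposited table gives each intensity after ComBat adjustment with another series, per the file header. It gave the gene symbols and an alternative, its 7 columns from elsewhere were left aside, and 2 values below 1 were set to 1. The sources used here give neither the array type nor the ComBat batches.

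Of 45101 probe sets, 64 controls, 5820 with no gene and 1399 with several were left out. The brightest of each gene's probe sets, by mean log2 intensity, was used. Of the members, 79 matched RefSeq by symbol and 4 by synonym. Genotypes were compared on log2 intensities with limma 3.58.1 (lmFit, eBayes; R 4.3.3), with no term beside genotype, and p-values (two-sided) adjusted by Benjamini-Hochberg over 20680 genes at 0.05. Exact permutation tests ran over all 126 splits. The procedure was tested on simulated data. The number of arrays limits the precision. The members, lists and alternatives were chosen with earlier results of these data known.

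The values of 1 member are not reported here on their own. Named were members that pass; the 4 with the lowest limma p in complexes I, III, IV and V; the extremes of each complex; members without overlap; the Sdh genes, Cyc1, Cycs, and fixed isoforms of complexes IV and V, of which Cox7b was not measured; of each other list those that pass, or else 2 by lowest p; and Ezh2. Alternatives were the ComBat table, a filter at the 40th percentile of mean log2 intensity, the mean of or every probe set, quantile normalization, median centring, array weights, a variance trend with robust estimation, the replicate number as a block, each array left out, WT replicates 3 and 4 left out together, and a threshold of 0.1.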

Additional observations from a re-analysis of the deposited data

Results flagged for a closer look

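In 6 of 134 groups of arrays examined, 1 array lay far from the rest of its genotype, by the gap to its nearest neighbour as a share of the group's range; chance gives about 1 in 20. Atp5g1 read 9.66 on Ezh2-null replicate 4, with 9.93 to 9.96 on the other Ezh2-null arrays. Pdss1 read 8.82 on Ezh2-null replicate 3, with 8.42 to 8.44 on the others. The erythroid marker Rhag read 3.58 on Ezh2-null replicate 2 and 3.25 on the others. Ndufs7 read 10.76 on WT replicate 2, with 11.47 to 11.62 on the other WT arrays. WT replicate 1 was low for Uqcrc2, at 11.26 with 11.80 to 11.89 on the others, and for Coq2, at 9.12 with 9.87 to 9.90 on the others.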

How the results depend on the processing

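Of the 1088 alternative values computed for the counts, medians and 61 named genes, 1017 kept direction and side of the threshold or moved little. Leaving out WT replicates 3 and 4 together gave 61 genes passing in place of 103 and 1 member, Cox6a2, and brought median changes to -0.079 for all members, -0.0096 for complex I, -0.15 for complex II, 0.0020 for complex III, -0.034 for complex IV and -0.095 for complex V. It reversed Cox6b2 (0.18), Cox7a1 (0.45), Cox7b2 (0.025), Ndufa4l2 (-0.079), Cox4i1 (0.0037), Cox6a1 (0.047), Ndufa4 (0.051), Atp5g1 (0.18) and Cycs (0.097). The cause was not tested. The ComBat table gave 202 genes and 1 member (Cox4nb), and leaving out dim genes 1 member (Cox4nb). Trend and robust variance gave 1 member (Ndufa10). Array weights gave 1007 genes, 7 members (Ndufa10, Ndufv1, Uqcrfs1, Atp5b, Atp5g2, Atp5k and Cox4nb) and a complex V median of -0.39. A threshold of 0.1 gave 488 genes and 2 members, and every probe set on its own 162 probe sets and 0 members. Sdhd, near 0, turned to -0.012 (ComBat), -0.070 (mean of probe sets), -0.015 (medians centred) and -0.048 (weights), and Cox8c to 0.013 (weights). Of the genes outside the chain, Nubpl passed in 7 of 18 alternatives, Csf3r in 4, Coq2 in 2 and Ndufaf4 in 1.

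With 1 array left out, 17 to 330 genes passed, more than 1.5 times above or below 103 in all 9 cases, and 0 to 4 members, with 1 (Ndufa10) without WT replicate 1 and 4 (Ndufa10, Ndufs7, Atp5k and Cox4nb) without WT replicate 2. The complex IV median ran between -0.25 and -0.12, nearest to 0 without WT replicate 3. Cox7a1 ran between -0.42 and 0.11, Sdhd between -0.049 and 0.046, and Atp5h between -0.048 and 0.0073. Deviations of same-numbered arrays of the genotypes had correlations of -0.045, 0.086, 0.13 and -0.14, and those of other pairs ran between -0.13 and 0.15. The labels give no pairing, and these values cannot show whether one exists. With the replicate number as a block, in which Ezh2-null replicate 5 has no partner, 135 genes and 0 members passed, the members' median change was -0.24 and Atp5h turned to 0.0073.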
